A study of Rattus norvegicus with 123 samples.

Results

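Livers of rats given pioglitazone by daily gavage for 28 d at 63 or 16 mg/kg are described here, each dose against rats given water, on 13 of the 123 Affymetrix RaGene 2.0 ST arrays of the series. The arrays were chosen by treatment group and by a quality label of Yes: 5 at 63 mg/kg (group Pio_M_63ppm_28d), 3 at 16 mg/kg (Pio_M_16ppm_28d) and 5 with water (H2O_E_28d, dose 0 mg/kg). All animals were adult male Han Wistar rats, assigned to groups at random and killed 1 d after dosing ended, and their age is not given. The labels speak of several performing laboratories and name none for a group. The group names say ppm where the dose label says mg/kg. The labels give H2O_E_28d as the corresponding control of both pioglitazone groups. Replicate 4 at 16 mg/kg carries a quality label of No and was left out. The series compares liver carcinogens with non-carcinogens, and its design text names pioglitazone among the non-carcinogens.

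Pioglitazone is a thiazolidinedione, an insulin-sensitising drug that binds and activates the nuclear receptor PPAR gamma. PPAR gamma pairs with the retinoid X receptor on DNA and is best known for turning on genes of lipid uptake and storage in fat cells. It is less abundant in the liver of lean rodents, where the related receptor PPAR alpha drives genes of fatty acid oxidation.

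Transcripts are described by number and level here, because symbols were not to be had. Each probe set has the identifier of an Ensembl transcript, 0 of which could be paired with a symbol through the gene table at hand. For the same reason no gene list, liver cell marker or promoter sequence could be set against the data, and the labelled tissue was not checked by its markers. No more than 4 transcripts are printed by identifier, the 2 largest rises and the 2 largest falls at 63 mg/kg among those that passed the test and whose treated and water arrays did not overlap. In whole liver, fewer cells of a type and less RNA per cell cannot be told apart.

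The 13 arrays were alike in overall signal. Their median log2 levels lay between 5.50 and 5.53 at 63 mg/kg, between 5.48 and 5.51 at 16 mg/kg and between 5.49 and 5.51 with water. The mean correlation of an array with the others of its group ran from 0.987 to 0.990. The median SD of a transcript within a group was 0.182 on the log2 scale at 63 mg/kg, 0.164 at 16 mg/kg and 0.165 with water, within the 0.129 to 0.248 of all 29 groups. Between the highest and the lowest array, 108 transcripts differed by at least 2 log2 units at 63 mg/kg and 96 with water. The labels number the arrays of a group as replicates but do not say that each is a separate animal. The p-values thus measure spread between arrays, pooled within all 29 groups of the series and not from the 13 arrays alone.

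Pioglitazone at 63 mg/kg changed 542 of 22470 transcripts (2.41%) against water at an adjusted p under 0.05. Of these, 210 rose (0.935%) and 332 fell (1.48%). Rises made up 38.7% of the calls, against 29.3% of 598 calls with arrays centred on their medians and 45.4% of 434 with quantile normalization. The changes were small: the median size was 0.46 on the log2 scale, with quartiles of 0.37 and 0.59, against a median of 0.12 over all transcripts tested. At least 2-fold rises numbered 7 and at least 2-fold falls 2. A fold of 1.5 to 2 was reached by 50 rises and 77 falls, and one of 1.25 to 1.5 by 139 rises and 185 falls. Over all transcripts tested, the distance from a change to either end of its 95% interval had a median of 0.26.

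The number of calls at 63 mg/kg depended on which arrays were in the comparison. It was 265 without the 63 mg/kg replicate 2, and 282, 274 and 358 without water replicates 1, 2 and 5. Without any other single array of these groups it lay between 367 and 584. Of the 265 called without the 63 mg/kg replicate 2, 253 were among the 542. With only the 4 groups that share the water control in the fit (both pioglitazone groups, rosiglitazone and water), 154 transcripts were called, 142 of them among the 542.

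**Figure D1:**
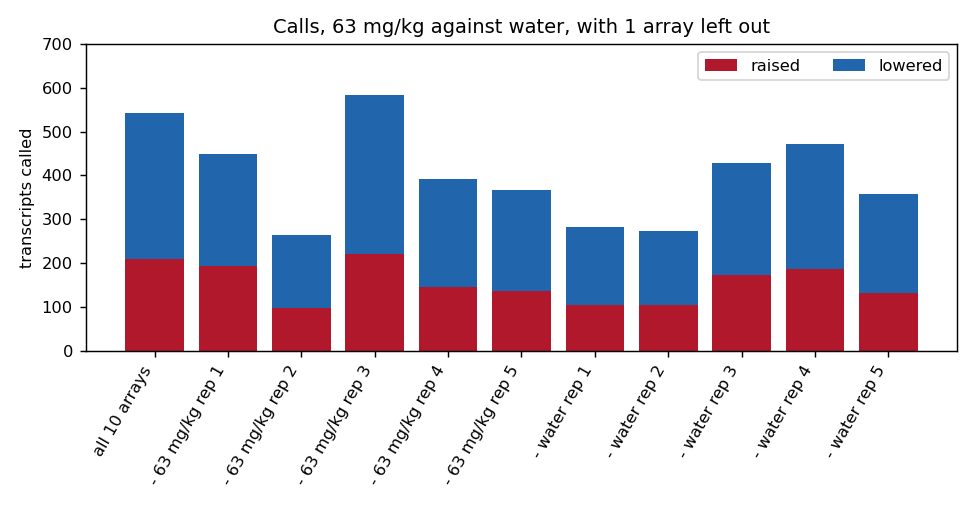
Transcripts called for 63 mg/kg against water (vertical), split into raised and lowered, with all 10 arrays of these groups and with each array left out in turn (horizontal). The total is 542 with all arrays, 584 without the 63 mg/kg replicate 3 and 265 without the 63 mg/kg replicate 2.

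The lowered transcripts had the brighter probe sets, although brightness also depends on the probes and does not rank transcripts by abundance. Over the 112 used arrays of the series the mean log2 level had a median of 7.61 in the lowered and 5.95 in the raised transcripts, against 5.50 over all transcripts. All transcripts were ordered by level and cut into 4 bins of equal size. Of the lowered, 196 belonged to the brightest bin, of which they made up 3.49%. In the dimmest bin 4 transcripts fell (0.0712%). The raised transcripts were spread more evenly, with 35, 58, 63 and 54 from the dimmest to the brightest bin. The median change at 63 mg/kg also leaned with level, at 0.02 over all transcripts and -0.02 without the dimmest 40%. With quantile normalization 197 rose and 237 fell, so the number of falls depends on the scaling.

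**Figure D2:**
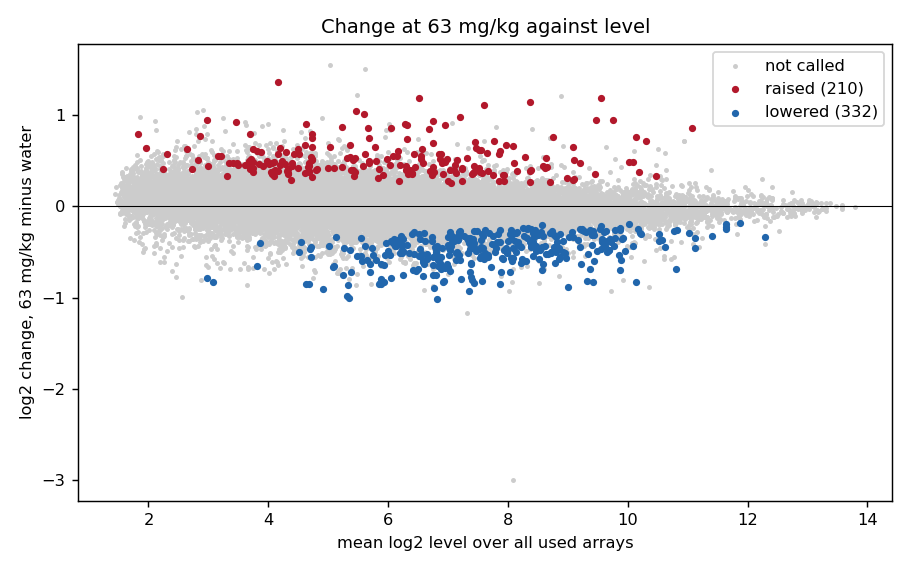
Each point is a transcript, placed by its mean log2 level over all used arrays (horizontal) and by its log2 change at 63 mg/kg minus water (vertical), with those that passed the test in colour. The 332 lowered transcripts lie mostly to the right, at a median level of 7.61, and most called changes are smaller than 1 log2 unit.

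In 338 of the 542 called transcripts (62.4%) the 5 arrays at 63 mg/kg did not overlap the 5 water arrays, against 4.44% of all transcripts. This held for 135 of the raised and 203 of the lowered. Calls and overlap rest on the same arrays, so a higher share among the called follows from their selection and is no support for them. Called transcripts are not all independent: 74 of the 542 had another called transcript with which their residuals correlated above 0.9 over the 112 arrays, and joining such partners left 501 sets.

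ENSRNOT00000020587 had the largest rise among transcripts whose arrays did not overlap. Its log2 levels were 6.79, 7.86, 7.01, 7.67 and 7.72 at 63 mg/kg, against 6.69, 6.28, 5.52, 6.43 and 6.21 with water. The lowest treated array thus lay just above the highest water array. The mean was 7.41 ± 0.48 at 63 mg/kg and 6.22 ± 0.44 with water (SD, n = 5 each), so it rose by 1.19 on the log2 scale (SE 0.25, adjusted p = 0.00218, or 0.0899 with only the 4 groups that share the water control in the fit). The 16 mg/kg arrays read 5.91, 7.19 and 6.57, of which 1 lay above the water arrays (change 0.33, SE 0.28, adjusted p = 0.784).

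ENSRNOT00000040950 rose next most among transcripts whose arrays did not overlap. It was at 6.71, 7.06, 7.83, 7.94 and 6.79 at 63 mg/kg, against 6.06, 6.16, 6.26, 5.64 and 6.49 with water. Within the 63 mg/kg group, replicates 3 and 4 stood above the other arrays. The change was 1.14 (SE 0.33, adjusted p = 0.0426), and leaving out any of 7 of these 10 arrays raised the adjusted p above 0.05, up to 0.14 without the 63 mg/kg replicate 4. It was 0.101 with only those 4 groups. At 16 mg/kg its levels were 5.78, 6.60 and 6.85, of which 2 lay above the water arrays (change 0.29, SE 0.38, adjusted p = 0.887). The residuals of this transcript and of ENSRNOT00000020587 correlated over the 112 arrays (r = 0.52), a description of arrays that share groups.

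ENSRNOT00000024054 had the largest fall. Its log2 levels were 6.29, 5.74, 6.87, 6.74 and 6.46 at 63 mg/kg, against 7.33, 7.19, 7.86, 7.51 and 7.27 with water. The means were 6.42 ± 0.44 at 63 mg/kg and 7.43 ± 0.27 with water (SD, n = 5 each), a change of -1.01 (SE 0.21, adjusted p = 0.00274, or 0.0645 with only those 4 groups). The 16 mg/kg arrays were split, with 6.44 below all water arrays and 7.74 and 7.55 among them (change -0.19, SE 0.25, adjusted p = 0.885).

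ENSRNOT00000066346 fell with the smallest error of the 4. It stood at 6.90, 6.96, 7.35, 6.69 and 6.90 at 63 mg/kg, against 7.95, 8.16, 7.68, 7.65 and 8.00 with water. The change was -0.93 (SE 0.16, adjusted p = 0.000115). At 16 mg/kg its levels of 7.59, 7.08 and 7.43 lay below all 5 water arrays, yet the change of -0.52 (SE 0.18) did not pass the test (adjusted p = 0.287).

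**Figure D3:**
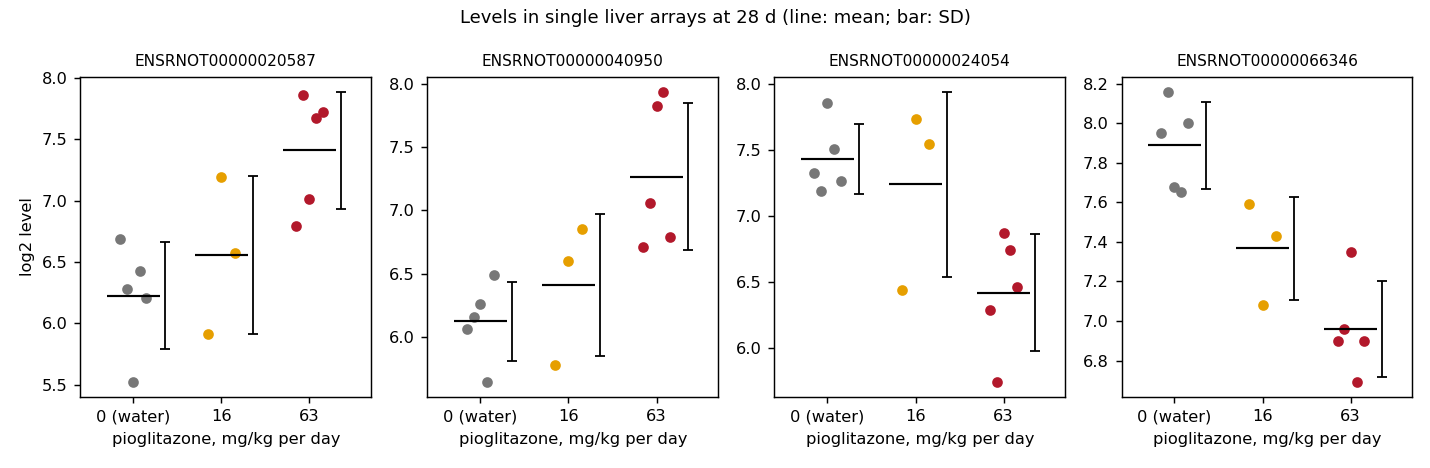
Log2 levels of the 4 identified transcripts (vertical) in single arrays with water (0), 16 and 63 mg/kg pioglitazone (horizontal), with the mean as a line and the SD as a bar. The 63 mg/kg arrays lie beyond all water arrays in each panel by the rule that chose these transcripts. The mean at 16 mg/kg lies between the other means in all 4, which choosing them at 63 mg/kg also favours.

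Pioglitazone at 16 mg/kg changed 11 transcripts (0.049%), of which 5 rose (0.0223%) and 6 fell (0.0267%), with 2036 at an unadjusted p under 0.05. The arrays at 16 mg/kg and with water were fully separate in all 11, which their selection favours, and in 6.69% of all transcripts. Rises ran from 0.46 to 1.28 on the log2 scale and falls from -0.54 to -0.98. The falls of -0.65 and -0.67 were in transcripts of like levels, 5.72 and 5.67 at 16 mg/kg and 6.38 and 6.34 with water. Whether these are separate signals was not tested. Over all transcripts the median half-width of the 95% interval was 0.30, wider than at 63 mg/kg because the 16 mg/kg group holds 3 arrays. The transcript that rose most was dim, with a log2 level of 3.93 ± 0.24 (SD, n = 3) at 16 mg/kg and 2.65 ± 0.43 (n = 5) with water, a change of 1.28 (SE 0.28, adjusted p = 0.0383). The fall with the lowest adjusted p, 0.0262, was in a bright probe set, with 9.34 ± 0.10 at 16 mg/kg (SD, n = 3) and 9.88 ± 0.21 with water (n = 5), a change of -0.54 (SE 0.10).

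The number of calls at 16 mg/kg also depended on single arrays. Without the 16 mg/kg replicate 1 or without water replicate 1 limma called 0 transcripts, with 1864 and 1846 at an unadjusted p under 0.05. The count was 3 without replicate 2 of the 16 mg/kg group. It was 2, 6 and 18 without water replicates 2, 3 and 5. With only the 4 groups that share the water control in the fit it was 0, with 2173 at an unadjusted p under 0.05.

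The 2 doses can be set side by side for these 11 transcripts, although both are measured against the same 5 water arrays, so a likeness between them is not independent evidence. At 63 mg/kg the 5 that rose at 16 mg/kg had changes of 0.92, 0.56, 0.35, 0.18 and 0.34, in the order of their changes at 16 mg/kg of 1.28, 0.64, 0.59, 0.53 and 0.46. The 6 that fell at 16 mg/kg, by -0.54, -0.65, -0.66, -0.67, -0.91 and -0.98, had changes at 63 mg/kg of -0.63, -0.63, 0.16, -0.59, -0.29 and -0.40. In 1 of the 11 the size was larger at 63 mg/kg, and the sign differed in 1. Selection at 16 mg/kg favours large values there, so the smaller sizes at 63 mg/kg show no weakening with dose. In the other direction, the 210 transcripts raised at 63 mg/kg had a median change of 0.48 there and 0.23 at 16 mg/kg, and the 332 lowered had -0.45 and -0.20. Selection at 63 mg/kg likewise favours large values there, and the shared water arrays favour the same sign. The smaller sizes at 16 mg/kg thus do not by themselves show a graded response. The median change over all transcripts was 0.02 at 63 mg/kg.

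The doses themselves, 63 against 16 mg/kg, differed in 3 transcripts (0.0134%), all higher at 63 mg/kg. The direct difference leaves out the water arrays. Over all transcripts the median half-width of its 95% interval was 0.30, and 2814 had an unadjusted p under 0.05. The largest difference was 1.07 (SE 0.22, adjusted p = 0.0443), in a transcript at 6.64 ± 0.31 at 63 mg/kg (SD, n = 5), 5.56 ± 0.22 at 16 mg/kg (n = 3) and 5.74 ± 0.34 with water (n = 5). The next was 0.97 (SE 0.20, adjusted p = 0.0443), in a transcript at 9.06 ± 0.25 at 63 mg/kg, 8.08 ± 0.13 at 16 mg/kg and 8.30 ± 0.24 with water. In both, the 16 mg/kg mean lay slightly below the water mean. The last, with a difference of 0.81 (SE 0.14, adjusted p = 0.00487), was lowered at 16 mg/kg (-0.66, SE 0.14, adjusted p = 0.0427), while its change at 63 mg/kg was 0.16 (SE 0.13, adjusted p = 0.577). The arrays of the doses were fully separate in all 3, which their selection favours, and in 7.54% of all transcripts. The count ran from 1 (without the 63 mg/kg replicate 2 or 5) to 31 (without the 63 mg/kg replicate 3) and was 9 without replicate 1 or 4 of that group. It was 15, 10 and 7 without the 16 mg/kg replicates 1, 2 and 3. With only the 4 groups that share the water control in the fit limma called 0, with 2831 at an unadjusted p under 0.05. With arrays centred on their medians 29 transcripts differed, of which 24.1% were higher at 63 mg/kg, against 100% without centring.

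A trend was also fitted over 0, 16 and 63 mg/kg as the slope across the 3 group means, scaled to a step of 63 mg/kg. It passed the test for 532 transcripts (2.37%), 234 rising (1.04%) and 298 falling (1.33%) with dose. The 63 mg/kg group sits far from the other doses, so this slope follows the change at 63 mg/kg closely. ENSRNOT00000020587 had a slope of 1.18 (SE 0.24, adjusted p = 0.00212) and ENSRNOT00000024054 one of -1.03 (SE 0.21, adjusted p = 0.00201). With arrays centred on their medians 29.3% of the calls were rises, against 44% without centring. The count was 236 and 340 without the 63 mg/kg replicates 2 and 4 and 315 without water replicate 1. With only the 4 groups that share the water control in the fit it was 132.

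The series holds 21 used arrays in 5 other control groups at 28 d, given carboxymethylcellulose (CMC_A, CMC_B, CMC_C) or corn oil (CO_B, CO_D), with the group CO_D_F_28d not used. They took no part in the comparisons above beyond the estimate of the spread, and show where the pioglitazone and water arrays lie among control livers of the series. The labels name no laboratory for a group, and vehicle, laboratory and group were not separated between these controls. Each array was set against the mean of the 5 other control groups, and the median taken over the raised and over the lowered transcripts.

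Over the 210 raised transcripts this median was 0.15 to 0.28 in the 63 mg/kg arrays, -0.06 to -0.03 in the 16 mg/kg arrays and -0.31 to -0.22 in the water arrays, while the 21 other control arrays lay between -0.14 and 0.14. Over the 332 lowered transcripts it was -0.31 to -0.13 at 63 mg/kg, -0.06 to -0.02 at 16 mg/kg and 0.08 to 0.24 with water, with the other controls between -0.10 and 0.11. The 63 mg/kg arrays thus lay outside the other controls on one side, and the water arrays on the opposite side, outside the other controls for the raised transcripts and partly among them for the lowered. The 16 mg/kg arrays lay within their range. The transcripts were chosen for a difference between the 63 mg/kg and the water arrays, which by itself pushes these groups apart, so no test is given. Over all transcripts the same medians stayed between -0.04 and 0.02 in the 3 groups.

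**Figure D4:**
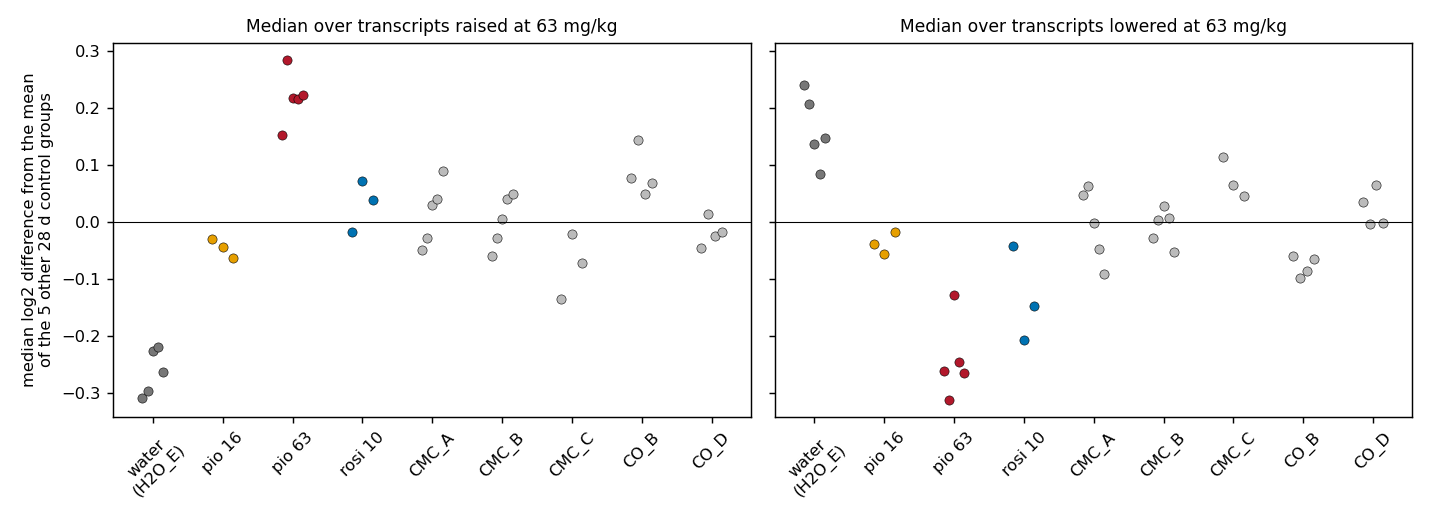
Each point is an array, placed by group (horizontal) and by the median over the 210 raised (left) or 332 lowered (right) transcripts of its log2 difference from the mean of the 5 other 28 d control groups (vertical). The 63 mg/kg arrays and the water arrays lie on opposite sides of 0 in both panels, and the 16 mg/kg arrays lie among the other controls.

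Transcript by transcript, the 63 mg/kg mean lay beyond the means of all 6 control groups at 28 d, water included, in 341 of the 542 called (62.9%), against 30% of all transcripts in the direction of their own difference. The water mean was itself the most extreme of the 6 on the side away from 63 mg/kg in 304 of the 542 (56.1%), against 33.4% of all transcripts. Both held for 135 of the 542 (24.9%), against 3.29% of all transcripts. The 542 were chosen for a difference between the 63 mg/kg and water arrays, which by itself raises these 3 shares, so no test is given.

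The 4 identified transcripts differed in this respect. The 5 arrays at 63 mg/kg all lay above the highest of the 21 other control arrays for ENSRNOT00000020587, whose other controls ran from 5.14 to 6.61 with a median of 5.94. For ENSRNOT00000040950 none did: its other controls ran from 5.17 to 8.70, and the corn oil group CO_D averaged 7.91 ± 0.69 (SD, n = 4), above the 63 mg/kg mean of 7.26 ± 0.58 (n = 5). For ENSRNOT00000024054 only 1 of 5 arrays at 63 mg/kg lay below the other controls, which ran from 6.03 to 7.81. For ENSRNOT00000066346, with other controls from 7.02 to 8.03, 4 of 5 did.

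Rosiglitazone, another thiazolidinedione, was given at 10 mg/kg for 28 d (3 used arrays) and has the same 5 water arrays as its control by the labels. Its dose differs from both pioglitazone doses, so values are set side by side with no comparison. It changed 153 transcripts (0.681%), with 45 raised and 108 lowered. ENSRNOT00000020587 stood at 7.69, 6.11 and 6.42 with rosiglitazone (change 0.52, SE 0.28, adjusted p = 0.518) and ENSRNOT00000040950 at 7.97, 6.71 and 6.32 (change 0.88, SE 0.38, adjusted p = 0.36). ENSRNOT00000024054 was at 6.73, 6.29 and 6.54, below all water arrays (change -0.91, SE 0.25, adjusted p = 0.0533), and ENSRNOT00000066346 at 7.44, 7.12 and 7.78 (change -0.44, SE 0.18, adjusted p = 0.32). The transcripts raised at 63 mg/kg pioglitazone had a median change of 0.28 with rosiglitazone and those lowered one of -0.30, values that share the water arrays with the choice of the transcripts.

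Wy-14643, an agonist of PPAR alpha, was given at 60 mg/kg for 28 d (5 arrays) and set against the carboxymethylcellulose group CMC_B_28d (5 arrays), its corresponding control by the labels. It shares no array with the pioglitazone comparisons. It changed 24.3% of all transcripts, raising 11.9% and lowering 12.5%. Of the 332 transcripts that pioglitazone lowered at 63 mg/kg, Wy-14643 lowered 136 (41%) and raised 54 (16.3%). Of the 210 raised, it raised 42 (20%) and lowered 13 (6.19%). The 136 were 4.86% of the list lowered by Wy-14643 and the 42 were 1.57% of the list raised by it.

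Brighter probe sets were lowered more often by Wy-14643, so the shares it lowered are also given by level. The shares it raised were not split by level. Wy-14643 lowered 25.9% of all transcripts in the brightest of the 4 bins by level, 44.4% of the 196 there that fell with pioglitazone and 14.8% of the 54 there that rose. In the other bins it lowered 7.96% of all transcripts, 36% of the 136 that fell with pioglitazone and 3.21% of the 156 that rose. The median change with Wy-14643 was -0.13 over the transcripts lowered by pioglitazone, and 0.04 over those raised. Across all 22470 transcripts, which are not independent replicates, the changes with pioglitazone and with Wy-14643 correlated with r = 0.11.

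**Figure D5:**
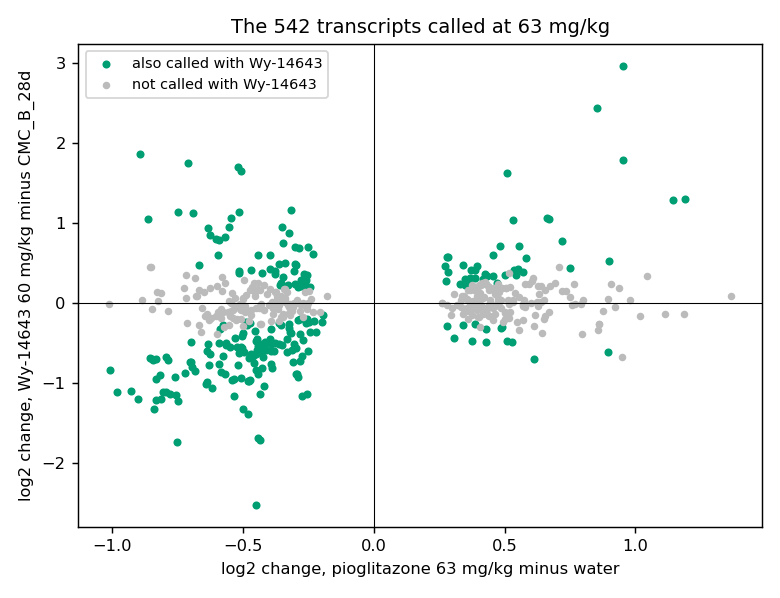
The 542 transcripts called at 63 mg/kg pioglitazone, by their log2 change with pioglitazone minus water (horizontal) and with Wy-14643 minus CMC_B_28d (vertical), in green where Wy-14643 also passed the test. The lower left holds the 136 transcripts that both lowered, and the upper left the 54 that Wy-14643 raised.

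Of the identified transcripts, 3 passed the test with Wy-14643 in the direction seen with pioglitazone. ENSRNOT00000020587 stood at 7.18 ± 0.48 with Wy-14643 and 5.87 ± 0.24 in CMC_B_28d (SD, n = 5 each), a change of 1.30 (SE 0.25, adjusted p = 1.11e-05). ENSRNOT00000040950 rose by 1.29 (SE 0.33, adjusted p = 0.00147), although 1 Wy-14643 array, at 5.55, lay below all CMC_B_28d arrays. Its Wy-14643 arrays, from 5.55 to 8.48, lay within the 5.17 to 8.70 of the 21 carboxymethylcellulose and corn oil arrays at 28 d. Among these controls CMC_B_28d averaged 6.03 and CO_D_28d 7.91. ENSRNOT00000066346 changed by -1.10 (SE 0.16, adjusted p = 1.5e-08), with 6.63 ± 0.18 in the Wy-14643 arrays and 7.73 ± 0.19 in CMC_B_28d (SD, n = 5 each). ENSRNOT00000024054, the largest fall with pioglitazone, had a change of -0.01 (SE 0.21, adjusted p = 0.989) with Wy-14643.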

How the data were processed

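RNA was extracted from frozen liver and hybridised to RaGene 2.0 ST arrays, per the labels' protocols. The deposited table holds log2 values, 1 per Ensembl transcript probe set and array, which the authors made with RMA and affy, per the submitters' processing notes. No versions are named, and which arrays were normalized together is not given in the sources used here.

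Of 23110 probe sets, 640 held the same values as another in all arrays and were dropped, leaving 22470. The labels mark 11 of 123 arrays as not of good quality, and these were left out. A model with 1 mean for each of 29 groups was fitted to 112 arrays with limma 3.58.1 in R 4.3.3 (83 residual and 4.23 prior degrees of freedom). Adjusted p-values are from this fit unless an alternative is named, by Benjamini-Hochberg over all transcripts, with a threshold of 0.05. The script was tested on simulated data. The number of arrays limits the precision.

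The 2 largest rises and falls at 63 mg/kg, past the threshold and without overlap, are printed by identifier. Lists of liver genes could not be used, since the table of 47357 genes pairs none of the identifiers with a symbol. The arrays, lists and rules were chosen with earlier results of these data known. The counts called at 63 mg/kg, at 16 mg/kg, between the doses and for the trend, the 4 identified transcripts, the share also lowered by Wy-14643 and the share beyond all control means were recomputed with other arrays, groups, scalings, filters and variance models, with a block for the replicate number (those shares neither with fewer groups nor with the block), and with each array left out in turn. The other counts have no such check.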

Additional observations from a re-analysis of the deposited data

Results flagged for a closer look

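The effects of the doses differed by a direct test in 3 transcripts, each higher at 63 than at 16 mg/kg, with values given above. An outlier test was run on 16 sets of 5 arrays at 63 mg/kg or with water. They were made of the identified transcripts, array medians, correlations and medians over called transcripts. None held an array past the critical value of 0.71 for sets of 5. With 5 arrays only one far from the rest could pass, so smaller deviations would be missed.

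The 16 mg/kg array left out for its quality label had a median log2 level of 5.50 and a mean correlation of 0.987 with the used 16 mg/kg arrays. In it ENSRNOT00000040950 stood at 6.92, against 6.41 on average in the used 16 mg/kg arrays and at most 6.49 with water. ENSRNOT00000024054 was at 6.58 in this array, below the 7.19 to 7.86 of the water arrays, and ENSRNOT00000066346 at 7.32, below 7.65 to 8.16. ENSRNOT00000020587, at 5.86, lay within the 5.52 to 6.69 of the water arrays.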

How the results depend on the processing

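With only the 4 groups that share the water control, limma called 154 transcripts at 63 mg/kg, 0 at 16 mg/kg (2173 at an unadjusted p under 0.05), 0 between the doses (2831 at an unadjusted p under 0.05) and 132 for the trend. Adding the replicate block to that fit gave 7, 0 (2174 at an unadjusted p under 0.05), 0 (2652) and 4. Same-numbered arrays correlated by -0.04 to 0.12 in their deviations, with 1 of 11 pairs over 0.1 and 3 of 11 best matched by their own number. So few pairs do not decide whether the numbers pair the arrays. Between the doses, 29 transcripts differed with arrays centred on their medians and 14 without the dimmest 40% of transcripts. With a spread that may differ between groups, an alternative chosen after seeing the data, 17 were called at 16 mg/kg. Quantile normalization, all 123 arrays, and trend and robust variances kept each count within 1.5 times, though not always the same transcripts. With all 123 arrays, 5 of the 11 called at 16 mg/kg were among the 11 of the main fit. Of the 3 then called between the doses, 1 was among the 3 of the main fit, and 1 was lower at 63 mg/kg. Without 1 array the counts ran from 265 to 584 at 63 mg/kg, from 0 to 18 at 16 mg/kg, from 1 to 31 between the doses and from 236 to 567 for the trend. Each identified transcript kept its direction in all 18 alternatives, which is no support for them. They were chosen for arrays without overlap, so leaving out 1 array could not reverse the direction. Alternatives that altered only the other groups, the filter or the variance model left the change itself the same. ENSRNOT00000066346 lost the call in 1 (the block), ENSRNOT00000020587 and ENSRNOT00000024054 in 2 (those 4 groups alone and the block) and ENSRNOT00000040950 in 9, with adjusted p up to 0.154. The causes were not tested. Alternatives with those 4 groups alone hold no Wy-14643 arrays and gave no shares for it.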
